A study of Mus musculus with 12 samples.

Results

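The genes followed here mark the non-blood part of the bone marrow, and they are 10 of the 21853 protein-coding genes in a table of mouse marrow expression. They were taken by symbol from a list drawn up with earlier results of these data known: the niche signals Cxcl12 and Kitl and the receptor gene Lepr, the bone matrix genes Col1a1, Col1a2, Sparc, Bglap and Spp1, and the endothelial genes Cdh5 and Kdr. Messenger RNA of whole bone marrow cells from mice labelled B6 was sequenced in 4 groups of 3 libraries. The control group had no total body irradiation (TBI), and no vehicle is named for it. The TBI group had 5 Gy of gamma rays at 0.66 Gy/min and was given 100 µL of olive oil by gavage. The TBI+DEIX group had the same irradiation and was given deinoxanthin (DEIX), a carotenoid pigment of a radiation-resistant bacterium, by mouth at a daily dose of 25 mg/kg for 14 days. The DEIX group was given deinoxanthin without irradiation. The dose and its duration are stated for mice treated after irradiation, and whether the DEIX group was dosed alike is not given in the sources used here. Marrow was taken 14 days after irradiation. Age, sex and the way the marrow was removed from the bone are not given in the sources used here.

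The niche is the set of non-blood cells that holds blood stem cells in the marrow. Its perivascular stromal cells, which carry the leptin receptor, secrete the chemokine CXCL12, which retains stem and progenitor cells through the receptor CXCR4, and stem cell factor, the Kitl product, which maintains them through the receptor KIT. Osteoblasts on the bone surface lay down type I collagen and the proteins bound to it, and sinusoidal endothelium, which carries VE-cadherin and a receptor for vascular endothelial growth factor, lines the vessels through which blood cells leave. Such cells are rare in marrow flushed from bone, most are held in matrix, and irradiation is known to dilate marrow vessels and to let fat cells and osteoblast-lineage cells expand. In whole marrow, fewer cells of a type and less RNA per cell cannot be told apart.

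The promoters of 3 of the 10 genes are shown because the results below turn on these genes and because they differ in their core elements. Each line is the 150 bases before the RefSeq transcription start on GRCm38.p6, written 5′ to 3′ on the gene's strand, for Bglap at chr3:88384467-88384616 (minus strand), Spp1 at chr5:104434961-104435110 (plus strand) and Cxcl12 at chr6:117168385-117168534 (plus strand). Capitals mark matches, on either strand, to 4 motifs: the TATA box TATAAA, the core ACCACA bound by RUNX factors, the GC box GGGCGG and the CCAAT box.
Bglap: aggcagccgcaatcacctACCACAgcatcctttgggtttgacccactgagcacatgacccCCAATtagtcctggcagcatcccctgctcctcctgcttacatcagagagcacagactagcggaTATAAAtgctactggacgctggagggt
Spp1: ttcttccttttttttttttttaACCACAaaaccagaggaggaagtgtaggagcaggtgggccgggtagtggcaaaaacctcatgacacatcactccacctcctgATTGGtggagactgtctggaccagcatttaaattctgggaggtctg
Cxcl12: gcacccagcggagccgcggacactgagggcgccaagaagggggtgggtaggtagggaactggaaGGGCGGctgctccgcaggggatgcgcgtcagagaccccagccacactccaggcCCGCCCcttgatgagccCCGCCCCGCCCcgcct

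With the base before the start counted as -1, Bglap held TATAAA from -27 to -22, ACCACA from -132 to -127 and CCAAT from -90 to -86. Spp1 held ACCACA from -128 to -123 and CCAAT on the other strand from -46 to -42. Cxcl12 held GGGCGG 4 times, once on the gene's strand from -86 and on the other strand at -33 to -28, -16 to -11 and -11 to -6, the last pair sharing a base. Among 32851 mouse promoters cut to the same length, 7.57% held TATAAA, 8.40% ACCACA, 28.6% GGGCGG and 24.5% CCAAT. A match describes letters and not a bound site. Promoters of 8 of the 10 genes were matched in the RefSeq table.

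Expression was deposited as FPKM, a fragment count divided by transcript length and library depth, so levels can be compared between genes. The total fragments per library are not in the table, but genes with few fragments step in units of 1 fragment, and these steps gave an estimated depth of 21100000 fragments in TBI+DEIX replicate 1 to 59300000 in control replicate 3. TBI+DEIX libraries were the shallowest with DEIX replicate 1, at 21100000 to 33900000. TBI+DEIX replicate 1 also stood apart from the other 11 libraries on the first principal component of all tested genes, so the members' calls and larger differences that rest on it are given without it as well. For the other genes named below, calls that were lost without 1 library are said to be so. Differences were tested with limma on log2(FPKM + 1) over the 10994 genes that reached FPKM 1 in at least 3 libraries, and a gene is called changed at a Benjamini-Hochberg adjusted p under 0.05. Fold changes on this scale understate those of low genes. Nothing in the labels says that the 3 libraries of a group came from separate animals, so p-values measure the spread between these libraries, which may be technical.

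That level was reached by 6 genes, Cxcl12, Spp1, Sparc, Col1a1, Col1a2 and Bglap, and 4 were too low to be tested, Kitl, Lepr, Cdh5 and Kdr. Cxcl12, with 2.27 to 22.9 FPKM over the 12 libraries, and Spp1, with 5.51 to 23.5 FPKM, were the most abundant. Sparc, Col1a1 and Col1a2 ranged from 0.239 to 5.44 FPKM. Of the genes too low to test, Lepr never exceeded 0.447 FPKM and Kdr never exceeded 0.510 FPKM, and only those 2 would remain too low if the required level were 0.5 FPKM. Cdh5 reached 1 FPKM in 2 libraries, both controls.

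A low FPKM on a long transcript can still rest on many fragments, and the reverse holds for a short one. By the estimated worth of 1 fragment, Kdr rested on 23.7 to 146 fragments per library and Col1a1 on 134 to 1125, although both lay near or under 1 FPKM in most groups. Bglap, the shortest of the 10 genes, passed the filter but rested on 0 to 87.2 fragments, with 1.59 to 5.16 in the DEIX libraries and 0, 5.49 and 1.77 in the 3 TBI+DEIX libraries. Those Bglap values are therefore the thinnest among the 6 genes. A value listed at 0 may be a failed estimate, since S100a8, S100a9 or Ngp, abundant in marrow neutrophils, was listed at 0 in 5 libraries, so the 0 of Bglap may not mean that no fragment was seen. The estimates cover counting only and assume the longest coding transcript, which makes them upper estimates for the 7 genes with shorter ones, among them Lepr (5.15 to 139 fragments) and Kitl (15.4 to 258). On the shortest transcripts the lowest library would hold 133 fragments of Cxcl12 and 68.8 of Spp1, against 398 and 293 on the longest.

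**Figure D1:**
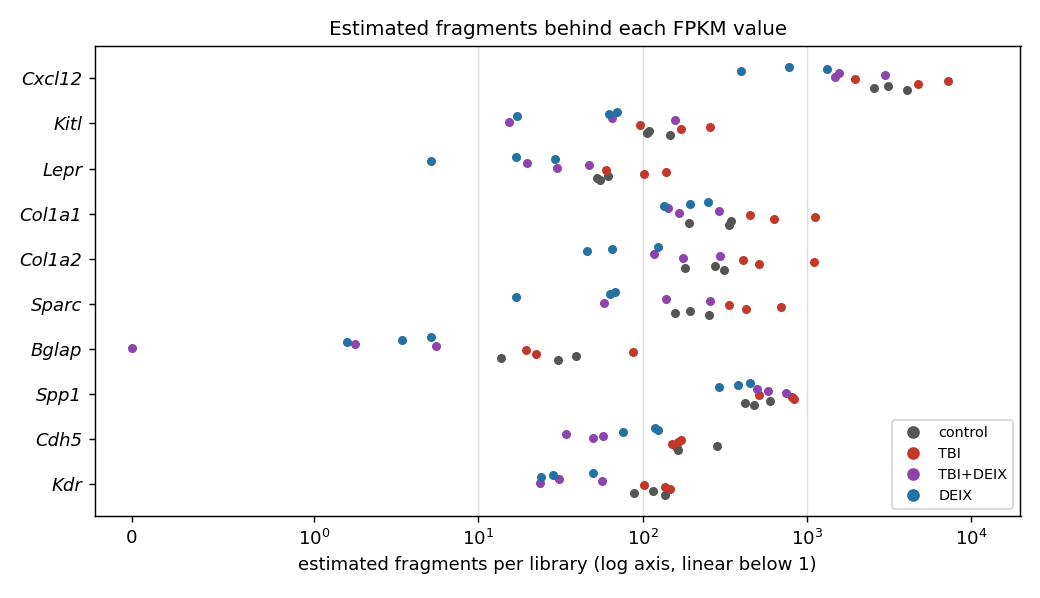
Estimated fragments behind each of the 10 genes in each of the 12 libraries, on a log axis that is linear below 1 fragment, coloured by group. Bglap lies at or under 5.49 fragments in all 6 libraries of the TBI+DEIX and DEIX groups, while Cxcl12 and Spp1 stay above 290 in every library on their longest transcripts.

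Cxcl12 (ENSMUSG00000061353.11, chr6:117168535-117181367 on GRCm38, plus strand), the chemokine that holds stem cells in the niche, was lowest in the DEIX group. The control libraries 1 to 3 had 14.3, 11.8 and 9.38 FPKM and the TBI libraries 17.3, 22.9 and 8.03 FPKM. The TBI+DEIX libraries had 12.5, 15.6 and 10.3 FPKM and the DEIX libraries 2.27, 5.16 and 3.34 FPKM. All 3 DEIX libraries lay under all 9 others, which overlapped one another.

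Against control, Cxcl12 fell in the DEIX group from 11.8 ± 2.47 to 3.59 ± 1.46 FPKM (SD, n = 3), or by -1.51 on the log2 scale (SE 0.34, limma adjusted p = 0.0258). The call rests on every library but 1: leaving out any of the 6 except DEIX replicate 2 gave adjusted p-values of 0.0658 to 0.114. Over all 6 of these fits, DEIX replicate 2 included, the changes ranged from -1.75 to -1.29. In irradiated mice the TBI+DEIX and TBI groups overlapped, with a log2 difference of -0.21 (SE 0.34, adjusted p = 0.725). The difference between the DEIX effects in irradiated and unirradiated mice was 1.30 on the log2 scale (SE 0.47) and did not pass limma's test (adjusted p = 0.523). In a contrast added after the values were seen, Cxcl12 was higher in TBI+DEIX than in DEIX by 1.62 (SE 0.34, adjusted p = 0.0317). Without TBI+DEIX replicate 1 it was 1.63 (adjusted p = 0.0301). The call was lost without TBI+DEIX replicate 2 or any 1 of the DEIX libraries (adjusted p up to 0.108) and without the filter on low values (adjusted p = 0.0511).

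Kitl (ENSMUSG00000019966.18, chr10:100015630-100100416, plus strand), which encodes stem cell factor, stayed under 1 FPKM in every library. It had 0.520, 0.484 and 0.329 FPKM in control, 0.623, 0.815 and 0.394 in TBI, 0.130, 0.822 and 0.432 for TBI+DEIX and 0.0977, 0.241 and 0.300 for DEIX. The 3 DEIX values lay under all control and TBI values, while TBI+DEIX replicate 1 lay below control and replicate 2 above it.

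Lepr (ENSMUSG00000057722.17, chr4:101717404-101815352, plus strand), the leptin receptor by which niche stroma is recognised, was the lowest of the 10 genes by its mean over the 12 libraries. It had 0.198, 0.246 and 0.188 FPKM in control, 0.379, 0.447 and 0.249 in TBI, 0.259, 0.251 and 0.132 for TBI+DEIX and 0.0299, 0.116 and 0.0738 for DEIX. The DEIX libraries were the 3 lowest of the 12 and every TBI library lay above every control library, the closest pair being 0.249 and 0.246 FPKM. For both genes the fit without the filter on low values called no change in any of the 5 planned contrasts, the lowest adjusted p being 0.125, for Lepr in DEIX against control.

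**Figure D2:**
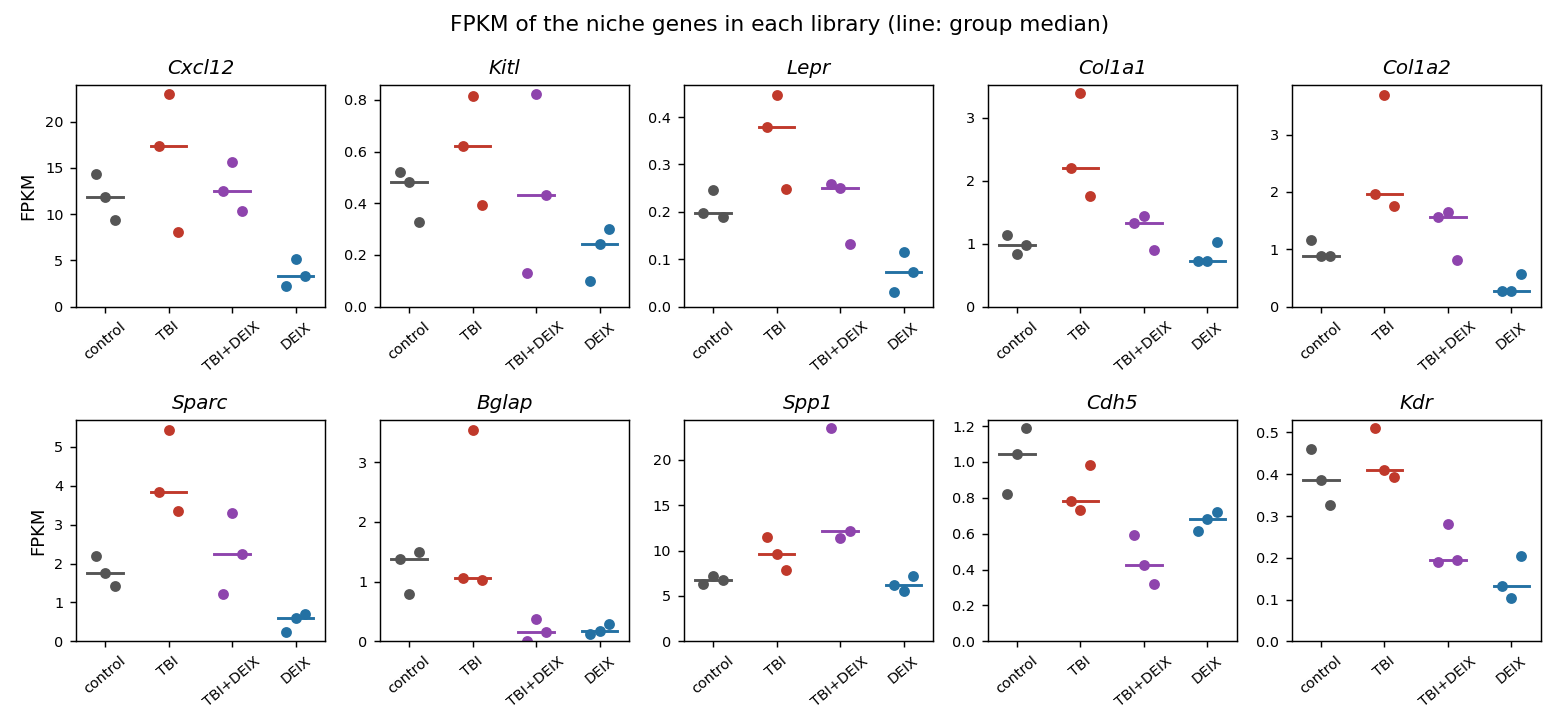
FPKM of each of the 10 genes in the 12 libraries, 1 panel per gene, with 1 point per library and a line at the median of each group. The DEIX points lie lowest for Cxcl12, Lepr, Col1a2 and Sparc, the TBI points highest for the collagens and Sparc, and the TBI+DEIX points lowest for Cdh5, with the highest median for Spp1.

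Among the bone matrix genes, the planned contrasts called Col1a1 higher in TBI against control and Sparc lower in DEIX against control. They called Bglap lower in TBI+DEIX against TBI and against control, and Spp1 higher in TBI+DEIX against control. The limits of each call are given below. Sparc lay at -0.88 in DEIX against control and -0.71 in TBI+DEIX against TBI, and Bglap at -0.89 and -1.20. For neither did limma call a difference between these DEIX effects (adjusted p = 0.999 for both). Col1a1 (ENSMUSG00000001506.10, chr11:94936224-94953042, plus strand) and Col1a2 (ENSMUSG00000029661.16, chr6:4504814-4541544, plus strand) encode the chains of type I collagen, the main protein of bone. Col1a1 had 1.13, 0.835 and 0.985 FPKM in control and 2.195, 3.39 and 1.75 FPKM in TBI. It had 1.33, 1.44 and 0.895 FPKM in TBI+DEIX and 0.728, 0.718 and 1.02 FPKM in DEIX. Every TBI library lay above all 9 others, and the other groups overlapped one another.

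Col1a1 rose after TBI from 0.984 ± 0.149 to 2.44 ± 0.844 FPKM (SD, n = 3), 2.48 times the control mean and a log2 change of 0.77 (SE 0.17, adjusted p = 0.0315). The call was lost without any of the 3 control libraries or without TBI replicate 1 or 2 (adjusted p up to 0.137), and when FPKM was rescaled to a fixed sum per library (adjusted p = 0.0982). With DEIX after irradiation, Col1a1 lay at 1.22 ± 0.291 FPKM, a log2 difference from TBI of -0.61 (SE 0.17) that did not pass the test (adjusted p = 0.0516). Without TBI+DEIX replicate 1 that difference was -0.65 with an adjusted p of 0.0318. Between DEIX and control Col1a1 differed by -0.12 (SE 0.17, adjusted p = 0.707).

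Col1a2 followed Col1a1 in 3 of the groups and not in the DEIX group. It had 1.16, 0.875 and 0.875 FPKM in control, 1.97, 3.70 and 1.75 in TBI, 1.56, 1.64 and 0.814 for TBI+DEIX and 0.275, 0.268 and 0.563 for DEIX. The 3 TBI libraries were the highest and the 3 DEIX libraries the lowest of the 12. The log2 differences were 0.78 (SE 0.21, adjusted p = 0.0702) for TBI against control, -0.55 (adjusted p = 0.124) for TBI+DEIX against TBI and -0.53 (adjusted p = 0.148) for DEIX against control, none of which passed the test. The difference from TBI ranged from -0.70 without TBI replicate 3 to -0.31 without TBI replicate 2.

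The ratio of Col1a1 to Col1a2 FPKM, a measure chosen after the values were seen, set the DEIX libraries apart. It was 0.973, 0.954 and 1.13 in control, 1.11, 0.916 and 1.00 in TBI, and 0.856, 0.878 and 1.10 in TBI+DEIX, against 2.64, 2.68 and 1.82 in DEIX. All 9 libraries of the other groups lay between 0.856 and 1.13 and none reached the lowest DEIX value. The DEIX mean was 2.38 ± 0.486 and the control mean 1.02 ± 0.0941 (SD, n = 3), a log2 difference of 1.21. An exact two-sided permutation test gave p = 0.1, the smallest that 3 against 3 libraries allow, and 0.2 after Benjamini-Hochberg adjustment over the 6 pairs of groups. Leaving out 1 library at a time gave log2 differences of 1.11 to 1.39. In the DEIX libraries 1 to 3 Col1a2 rested on an estimated 45.8, 65.4 and 125 fragments on its longest transcript. On its shortest they would be 7.27, 10.4 and 19.8, so the lower part of the DEIX ratio is thin.

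**Figure D3:**
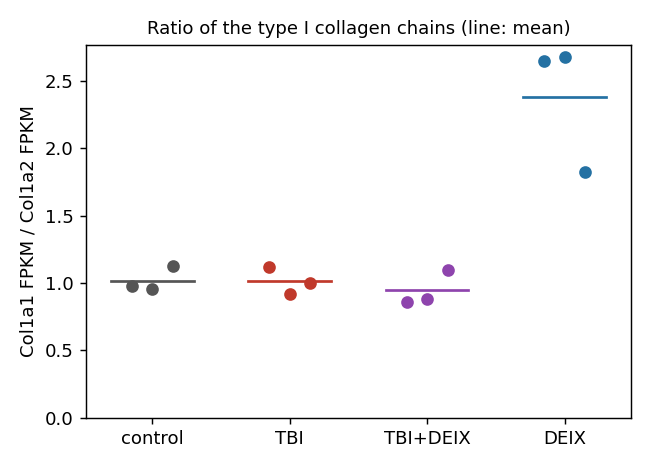
Ratio of Col1a1 FPKM to Col1a2 FPKM in each library, 1 point per library, with a line at each group mean. The 3 DEIX libraries lie between 1.82 and 2.68 and the 9 others between 0.856 and 1.13.

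Sparc (ENSMUSG00000018593.13, chr11:55394500-55423183, minus strand) encodes osteonectin, a protein that binds collagen and calcium and is also stored in platelets. It had 2.19, 1.76 and 1.42 FPKM in control and 3.85, 5.44 and 3.35 FPKM in TBI. It had 1.21, 3.30 and 2.23 FPKM in TBI+DEIX and 0.239, 0.600 and 0.708 FPKM in DEIX. TBI libraries were the 3 highest and DEIX libraries the 3 lowest, while control and TBI+DEIX overlapped.

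Sparc fell in DEIX against control, from 1.79 ± 0.382 to 0.515 ± 0.246 FPKM (SD, n = 3), or by -0.88 on the log2 scale (SE 0.24, adjusted p = 0.0485). That call lay at the threshold and was lost when any 1 of the 6 libraries was left out, with changes of -0.98 to -0.75, and without the filter on low values (adjusted p = 0.0767). Sparc reached 1 FPKM in 0 DEIX libraries, so its p-values in contrasts with the DEIX group are not free of the filter. The TBI mean was 2.35 times the control mean, a log2 difference of 0.89 (SE 0.24) that did not pass the test (adjusted p = 0.0678). TBI+DEIX lay under TBI by -0.71 (SE 0.24, adjusted p = 0.0839) and above DEIX by 1.06 (SE 0.24, adjusted p = 0.0415). The last call was lost without the filter (adjusted p = 0.0639) and without any 1 of the 6 libraries except TBI+DEIX replicate 1, without which it was 1.31 (adjusted p = 0.00682). With 1 library left out the difference from TBI ranged from -0.94 without TBI+DEIX replicate 2, where it passed the test (adjusted p = 0.0349), to -0.46 without TBI+DEIX replicate 1, where it did not (adjusted p = 0.117).

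Megakaryocytes, which also make osteonectin, were among the cells whose markers differed between the groups. The summed FPKM of 13 megakaryocyte and platelet genes was 132 to 201 in control, 37.2 to 68.9 in TBI, 50.7 to 63.5 for TBI+DEIX and 70.3 to 123 for DEIX. Pf4, platelet factor 4, had 61.3 ± 10.4 FPKM in control, 11.1 ± 6.59 in TBI and 29.0 ± 7.72 in DEIX (SD, n = 3). These sums were lowest after irradiation, where Sparc was highest without DEIX, and lay under control in DEIX, where Sparc was also lower. Their part in the Sparc result was not tested.

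Bglap (ENSMUSG00000074483.2, chr3:88383501-88384464, minus strand) encodes osteocalcin, made by mature osteoblasts. It had 1.37, 0.800 and 1.504 FPKM in control and 1.06, 3.54 and 1.02 FPKM in TBI. It was listed at 0, 0.368 and 0.149 FPKM in TBI+DEIX and had 0.117, 0.170 and 0.283 FPKM in DEIX. The 6 libraries with DEIX all lay under the 6 without it, and within each of these 6 the groups overlapped.

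Bglap fell in TBI+DEIX against TBI by 1.20 on the log2 scale (SE 0.28, adjusted p = 0.0298), and against control by 0.92 (SE 0.28, adjusted p = 0.0275). It passed the filter through TBI and control libraries alone, the groups in which it is high, so these p-values are not free of that choice. In the fit without the filter the adjusted p-values were 0.0489 and 0.0443. Without TBI+DEIX replicate 1, the library listed at 0, the changes were -1.09 (adjusted p = 0.0274) and -0.81 (adjusted p = 0.0553). The call against TBI was also lost without TBI replicate 3 (adjusted p = 0.0849), where 5 of all tested genes were called, or TBI+DEIX replicate 3 (adjusted p = 0.0856), where 51 were. The call against control was lost without control replicate 1 or 3 and without TBI+DEIX replicate 3. In DEIX against control the difference was -0.89 (SE 0.28, adjusted p = 0.0742). The mean of TBI, 1.87 ± 1.44 FPKM, rested on replicate 2, and without it the log2 difference from control turned from 0.27 to -0.11.

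Mouse osteocalcin has near-identical neighbours, so the share of fragments given to each copy is uncertain. Of the 391 windows of 50 bases in the Bglap transcript, 74.7% also occur in Bglap2 and 20.5% in Bglap3. Bglap2 had 0.614, 0.766 and 0.453 FPKM in control, 0.345, 1.53 and 0.516 in TBI, 0, 0.208 and 0 for TBI+DEIX and 0.0998, 0 and 0.241 for DEIX. Bglap2 was lower in all 6 libraries with DEIX than in all 6 without. Bglap3 had 0.204, 0.0815 and 0.149 FPKM in control, 0, 0.159 and 0.0709 in TBI, 0.0308, 0.0582 and 0.0958 for TBI+DEIX and 0.0493, 0.0999 and 0 for DEIX, and these sets overlapped. Both were too low to be tested.

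Spp1 (ENSMUSG00000029304.14, chr5:104435118-104441050, plus strand) encodes osteopontin, a bone matrix protein that is also secreted by osteoclasts and macrophages. It had 6.33, 7.17 and 6.71 FPKM in control and 11.5, 9.66 and 7.85 FPKM in TBI. It had 23.5, 11.3 and 12.2 FPKM in TBI+DEIX and 6.25, 5.51 and 7.22 FPKM in DEIX. Every irradiated library lay above every unirradiated one, TBI and TBI+DEIX overlapped by a small margin (11.5 against 11.3 FPKM), and control and DEIX overlapped.

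Spp1 rose in TBI+DEIX against control, from 6.74 ± 0.420 to 15.7 ± 6.80 FPKM (SD, n = 3), 2.33 times the control mean and a log2 change of 1.04 (SE 0.23, adjusted p = 0.00695). TBI+DEIX replicate 1 holds the highest value, and without it the change was 0.72 (adjusted p = 0.00305). The call held without each of the 6 libraries in turn and was lost when FPKM was rescaled to a fixed sum per library (adjusted p = 0.0549). Neither step alone passed the test: TBI against control gave 0.45 (SE 0.23, adjusted p = 0.334) and TBI+DEIX against TBI 0.59 (SE 0.23, adjusted p = 0.129), the latter falling to 0.27 without TBI+DEIX replicate 1. TBI+DEIX also lay above DEIX, by 1.12 (SE 0.23, adjusted p = 0.0317), or 0.81 without TBI+DEIX replicate 1 (adjusted p = 0.0117). That call was lost when any 1 of the DEIX libraries was left out (adjusted p up to 0.115) and on the rescaled values (adjusted p = 0.109). Between DEIX and control the difference was -0.08 (SE 0.23, adjusted p = 0.862).

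Of 8 tested osteoclast genes 2 were called higher in TBI against control, and 4 higher and 1 lower in TBI+DEIX against control, where 3.99% and 30% of all tested genes were called. The 1 lower, Car2, was not called without TBI+DEIX replicate 1 (adjusted p = 0.0855) and was lost without 5 of the 6 libraries in turn (adjusted p up to 0.112). Atp6v0d2, called higher in both contrasts, was lost in TBI against control without any 1 of the 6 libraries (adjusted p up to 0.162). Its call in TBI+DEIX against control was lost without 5 of the 6 (adjusted p up to 0.147). Ctsk, cathepsin K, the collagen-cleaving protease of osteoclasts, rose from 1.34 ± 0.538 FPKM in control to 7.32 ± 1.65 in TBI (log2 change 1.84, adjusted p = 0.00554) and 6.39 ± 2.36 in TBI+DEIX (1.64, adjusted p = 0.00223), and was 1.44 ± 0.852 in DEIX (SD, n = 3). Both Ctsk calls were kept without each library in turn. The summed FPKM of 13 osteoclast genes was 1095 to 1157 in control, 1137 to 1601 in TBI, 1370 to 1985 for TBI+DEIX and 1316 to 1516 for DEIX, and is mostly Mmp9, Car2 and Tcirg1, which blood cells also express. Their part in the Spp1 result was not tested.

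The endothelial genes were both too low for the filter, so their levels are given as a description first. Cdh5 (ENSMUSG00000031871.9, chr8:104101625-104144511, plus strand), VE-cadherin of endothelial junctions, had 0.823, 1.04 and 1.19 FPKM in control, 0.782, 0.734 and 0.983 in TBI, 0.591, 0.423 and 0.320 for TBI+DEIX and 0.616, 0.681 and 0.719 for DEIX. The order was control, TBI, DEIX and TBI+DEIX, and only the first 2 groups overlapped. The gaps were small, 0.734 against 0.719 FPKM between TBI and DEIX and 0.616 against 0.591 between DEIX and TBI+DEIX.

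Kdr (ENSMUSG00000062960.10, chr5:75932827-75978458, minus strand), the main signalling receptor for VEGF on endothelium, had 0.461, 0.386 and 0.327 FPKM in control, 0.510, 0.410 and 0.394 in TBI, 0.190, 0.281 and 0.194 for TBI+DEIX and 0.131, 0.105 and 0.204 for DEIX. As with Bglap, the 6 libraries with DEIX all lay under the 6 without it. Within each of these sets the groups overlapped.

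When all 17304 genes with a value above 0 were fitted, without the filter on low values, Kdr was called lower in DEIX against control (log2 -0.28, adjusted p = 0.0159), in TBI+DEIX against TBI (-0.24, adjusted p = 0.0356) and in TBI+DEIX against control (-0.19, adjusted p = 0.0243). Without TBI+DEIX replicate 1 the last of these was -0.17 and not called (adjusted p = 0.0559). In the fit of all libraries 4.65%, 3.91% and 21% of all genes were called in these 3 contrasts. Cdh5 was called lower in TBI+DEIX against control (-0.48, adjusted p = 0.00448) and lay at -0.35 in TBI+DEIX against TBI (adjusted p = 0.0587), or at -0.56 (adjusted p = 0.00250) and -0.42 (adjusted p = 0.0210) without TBI+DEIX replicate 1. At these levels the added value of 1 FPKM shrinks the log2 change, so the ratio of means is larger: the DEIX mean of Kdr was 0.375 times and the TBI+DEIX mean of Cdh5 0.436 times that of control.

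The counts of called genes are over the 6 that passed the filter, and passing was not independent of the groups. Bglap reached 1 FPKM only in TBI (3 libraries) and control (2), and Sparc, Col1a2 and Bglap reached it in 0 DEIX libraries, so a shared sign among the 6 is partly set by the filter and is not counted here. In TBI against control 1 of the 6 was called, Col1a1, where 3.99% of all tested genes were called and 0.891% were called higher. At an unadjusted p under 0.05 there were 3, with Sparc and Col1a2, and 18.1% of all tested genes. Of all 439 called genes 98 were higher, against 9.49% of 253 on the rescaled values, and 153 to 259 genes were called with 1 library left out.

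In DEIX against control 2 of the 6 were called lower, Cxcl12 and Sparc, where 7.24% of all tested genes were called and 2.72% were called lower, and for 4 the unadjusted p was under 0.05, as for 24.7% of all tested genes. Sparc, Col1a2 and Bglap passed the filter only through groups other than DEIX, so nothing is read from their counts against these shares. When FPKM was rescaled to a fixed sum per library, the median of all genes in this contrast moved by -0.14, so the differences are relative to that choice. Of all 796 called genes 299 were lower, while on the rescaled values 19.1% of 282 called genes were higher, and 146 to 938 genes were called with 1 library left out.

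In TBI+DEIX against TBI 1 of the 6 was called, Bglap, where 8.1% of all tested genes were called and 3.41% were called lower. Since Bglap passed the filter only through the other 2 groups, nothing is read from its count against that share. For 5 the unadjusted p was under 0.05, as for 27.2% of all tested genes. The share moved with single libraries. Against 891 genes called in all 12 libraries, 5 were called when TBI replicate 3 was left out. Leaving out TBI+DEIX replicate 3 gave 51 called genes, and leaving out replicate 1 of that group gave 2836. Of the 891 called genes 375 were lower, while on the rescaled values 34.4% of 157 called genes were higher.

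In TBI+DEIX against control Spp1 was called higher and Bglap lower, 2 genes in a contrast that called 30% of all tested genes, 16.9% higher and 13.1% lower. Nothing is read from the Bglap call against these shares, since Bglap passed the filter only through TBI and control. On the rescaled values 1785 genes were called and the balance turned, with 30.6% of them higher. The other 4 were not called, with log2 differences of 0.11 for Cxcl12 to 0.23 for Col1a2. With 1 library left out these ranged from -0.053 to 0.43 for Sparc, highest without TBI+DEIX replicate 1, from 0.13 to 0.40 for Col1a2, from 0.086 to 0.27 for Col1a1 and from -0.039 to 0.24 for Cxcl12. The contrasts that name TBI share the TBI libraries, and those against control share the control libraries.

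For the difference between the DEIX effects in irradiated and unirradiated mice, limma called 0 of the 6, where 0.2% of all tested genes were called, 22 genes, and the unadjusted p was under 0.05 for 1, Cxcl12, and for 7.5% of all tested genes. Without TBI+DEIX replicate 1, 331 genes were called, none of them among the 6. In the added contrast of TBI+DEIX against DEIX 3 were called, Cxcl12, Spp1 and Sparc, all higher, where 2.57% of all tested genes were called and 0.81% were called higher. Sparc reached 1 FPKM in 0 DEIX libraries, so nothing is read from its call against these shares. With 1 library left out, 50 to 927 genes were called in this contrast. No test showed that DEIX acted differently on any of the 6 in irradiated than in unirradiated mice.

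**Figure D4:**
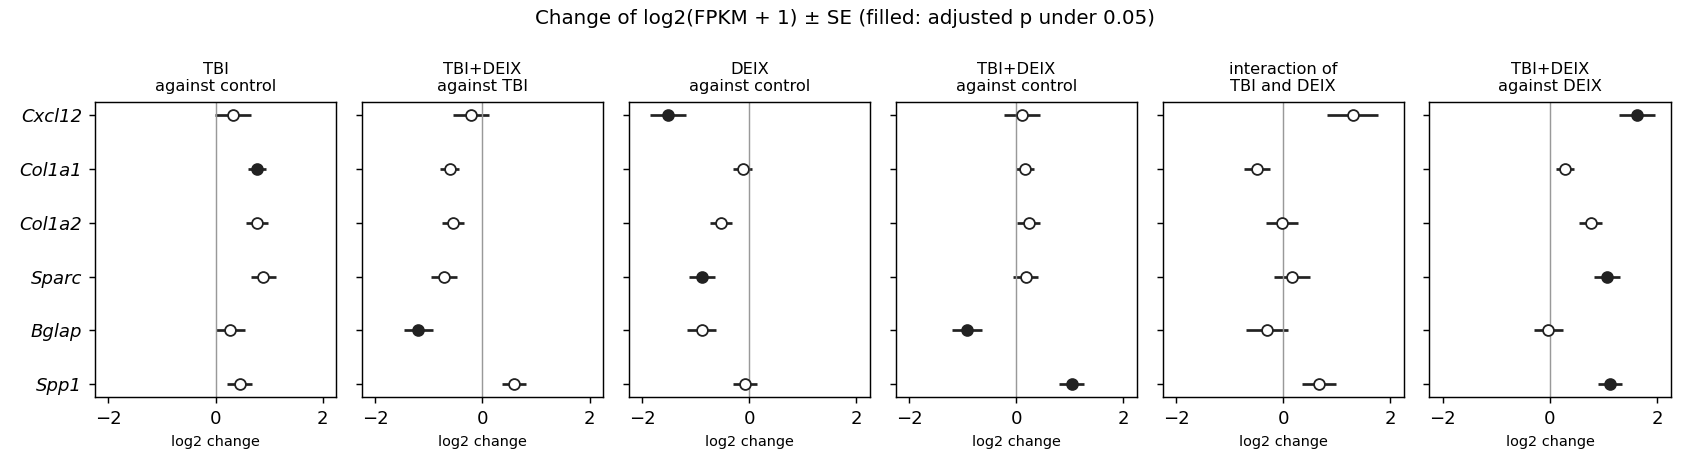
Log2 change of log2(FPKM + 1) with its standard error for the 6 tested genes in 6 contrasts, with filled points where the adjusted p was under 0.05. Filled points are Col1a1 in TBI against control, Bglap in TBI+DEIX against TBI, Cxcl12 and Sparc in DEIX against control, Spp1 and Bglap in TBI+DEIX against control, and Cxcl12, Spp1 and Sparc in TBI+DEIX against DEIX.

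Over all 10 genes, including those too low to test, the order of the libraries can be counted. Every DEIX library lay under every TBI library for all 10 genes, where 10.3% of the 17304 genes with any value did so. The DEIX libraries lay under every control library for 8 of 10 (16.2% of all genes), with Col1a1 and Spp1 overlapping. The TBI libraries lay above every control library for 5, Lepr, Col1a1, Col1a2, Sparc and Spp1 (16.6% of all genes), and the other 5 overlapped.

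The TBI+DEIX libraries lay under every TBI library for 6, Col1a1, Col1a2, Sparc, Bglap, Cdh5 and Kdr (10.2% of all genes), and above for 0. Against control they were all lower for Bglap, Cdh5 and Kdr (18.4% of all genes) and all higher for Spp1 (17.8%), and 6 overlapped. Against DEIX they were all higher for Cxcl12, Lepr, Col1a2, Sparc and Spp1 (8.07%) and all lower for Cdh5 (7.67%). The 10 genes are not independent of one another, and several mark the same cells.

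Few genes of the same cells were high enough to be tested, so the wider niche can be described only in part. Of 20 further stromal genes 7 were tested, of 20 osteoblast and osteocyte genes 3, of 23 endothelial genes 8 and of 22 matrix and collagen-processing genes 5. Defining genes of these cells ranged widely in their mean over the 12 libraries. Sp7, the osteoblast transcription factor, had 0.0363 FPKM, Pdgfra, a stromal receptor gene, 0.0365, and Emcn, an endothelial sialoprotein gene, 0.127. Higher were Stab2, a scavenger receptor gene of sinusoids, with 0.362 FPKM, Ibsp, a bone matrix protein gene, with 0.642, Adipoq, the adiponectin gene, with 0.762, and Alpl, with 1.34. Of these 7, Alpl was tested and the other 6 were chosen after their values were seen.

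The stromal list did not share one direction after irradiation. In TBI against control 2 of the 7 were called lower and 0 higher, where 3.99% of all tested genes were called, with a median of -0.48 against 0.045 over all genes. The 2 were Angpt1, a ligand of the endothelial TIE2 receptor, at -1.28 (adjusted p = 0.00413), and Csf1, the macrophage growth factor, at -0.86 (adjusted p = 0.00725). Both are also made by blood cells, and both calls were kept without each of the 6 libraries in turn. In DEIX against control 6 of the 7 were lower, with a median of -0.44 against 0.016. Called were 0 of the 7 (7.24% of all tested genes), and 3 had an unadjusted p under 0.05 (24.7%). Gas6, a secreted ligand of TAM receptors, had 1.13 ± 0.0961 FPKM in control, 2.08 ± 0.829 in TBI, 1.79 ± 0.486 for TBI+DEIX and 0.405 ± 0.205 for DEIX (SD, n = 3). It was called higher in TBI+DEIX than in DEIX (log2 0.98, adjusted p = 0.0261), a call lost without any 1 of the 6 libraries except TBI+DEIX replicate 1 (adjusted p up to 0.0949).

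Of the osteoblast list, Runx2, the transcription factor that starts the lineage and is also present in blood progenitors, was called lower in TBI+DEIX against control (-0.81, adjusted p = 0.00646). Ifitm5, a bone-restricted membrane protein, was called higher there (0.54, adjusted p = 0.0246), in the contrast with 30% of all genes called. The Runx2 call was kept without each library in turn, and the Ifitm5 call was lost without 3 of the 6 (adjusted p up to 0.0972). Alpl, alkaline phosphatase, varied from 0.367 to 2.86 FPKM among the TBI+DEIX libraries alone. No gene of this list was called in TBI against control or DEIX against control, where 3.99% and 7.24% of all tested genes were. An unadjusted p under 0.05 was reached by 1 and 0 of the 3, and by 18.1% and 24.7% of all tested genes.

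The endothelial list went in both directions. In TBI against control Pecam1, an adhesion molecule that platelets and blood cells share with endothelium, fell from 13.7 ± 0.879 to 6.33 ± 0.0754 FPKM (SD, n = 3, adjusted p = 0.00784) and Erg, a transcription factor of endothelium and blood progenitors, was called higher (0.67, adjusted p = 0.0166). The Pecam1 call was kept without each library in turn, and the Erg call was lost without 4 of the 6 (adjusted p up to 0.0853). Plvap, which forms the diaphragms of sinusoidal endothelium, was called lower in DEIX against control (-0.55, adjusted p = 0.0494) and in TBI+DEIX against TBI (-0.71, adjusted p = 0.0229). The first call was lost without any 1 of the 6 libraries (adjusted p up to 0.179), and the second without TBI replicate 2 or 3 or TBI+DEIX replicate 3 (adjusted p up to 0.111). Its levels were 1.12 ± 0.108 FPKM in control, 1.74 ± 0.190 in TBI, 0.696 ± 0.324 for TBI+DEIX and 0.452 ± 0.180 for DEIX (SD, n = 3). The 8 tested endothelial genes had a median of -0.40 in DEIX against control, with 7 of 8 lower and 1 called lower (2.72% of all tested genes). The median was -0.24 in TBI+DEIX against TBI, with 5 of 8 lower and 1 called lower (3.41%), or 2 without TBI+DEIX replicate 1 (25.8% of all genes called in either direction). Against control, TBI+DEIX had a median of -0.45, and 4 of 8 were called lower, Pecam1, Tie1, Eng and Adgrl4, and 1 higher, Erg (13.1% and 16.9% of all genes). The calls of Eng and Adgrl4 were each lost without 4 of the 6 libraries (adjusted p up to 0.124 and 0.0671). Over all libraries Eng had a mean of 6.5 FPKM and Adgrl4 of 5.6 FPKM, against 0.74 for Cdh5. Which cells gave these calls was not tested.

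**Figure D5:**
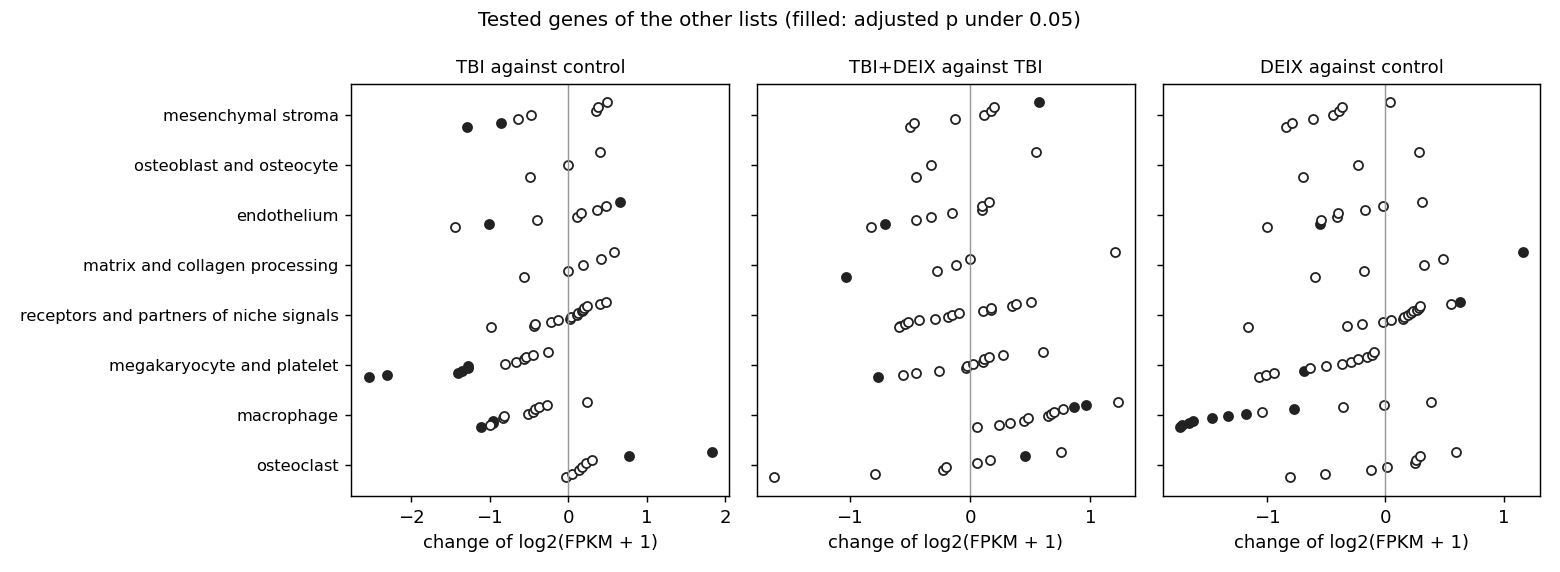
Log2 changes of the tested genes of 8 gene lists in TBI against control, TBI+DEIX against TBI and DEIX against control, with 1 point per gene. All 12 tested megakaryocyte genes lie below 0 in TBI against control, all 12 tested macrophage genes lie above 0 in TBI+DEIX against TBI, and the stromal and endothelial points lie on both sides of 0 in each of the 3 contrasts.

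Matrix genes other than the members were led by Fn1, fibronectin, which monocytes and macrophages make as well as stroma. It had 92.0 ± 12.9 FPKM in control, 105 ± 19.3 in TBI, 51.1 ± 9.23 for TBI+DEIX and 210 ± 46.9 for DEIX (SD, n = 3). It rose in DEIX against control (1.17, adjusted p = 0.00941), opposite to Sparc, and fell in TBI+DEIX against TBI (-1.03, adjusted p = 0.0199). The rise was lost without control replicate 2 or 3 (adjusted p up to 0.0512), and the fall without TBI replicate 2 or 3 or TBI+DEIX replicate 3 (adjusted p up to 0.0760). Bgn, biglycan, a small proteoglycan of bone matrix, had 1.37 ± 0.312, 2.62 ± 0.937, 1.95 ± 0.442 and 0.570 ± 0.183 FPKM in control, TBI, TBI+DEIX and DEIX, and was called higher in TBI+DEIX than in DEIX (0.90, adjusted p = 0.0325), again lost without any 1 of the 6 libraries except TBI+DEIX replicate 1 (adjusted p up to 0.124).

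The receptors Cxcr4 and Kit are carried by blood cells and were more abundant in FPKM than their ligands Cxcl12 and Kitl. Of 21 receptors and partners 15 were tested, and in TBI against control and DEIX against control 0 and 1 were called (3.99% and 7.24% of all tested genes). An unadjusted p under 0.05 was reached by 4 and 5, and by 18.1% and 24.7% of all tested genes. The 1 call, Notch2 in DEIX against control, was lost without any 1 of the 6 libraries (adjusted p up to 0.168). Called in TBI+DEIX against control were 3 higher and 3 lower (30% of all genes), or 5 higher and 3 lower without TBI+DEIX replicate 1 (38.5%). Of the 3 higher, Notch1 and Notch2 were each kept in 1 of 6 fits with a library left out (adjusted p up to 0.142 and 0.0982). Cxcr4, the CXCL12 receptor, had 280 ± 14.7 FPKM in control and 290 ± 10.8 in DEIX (SD, n = 3), a log2 difference of 0.05 (SE 0.28, adjusted p = 0.934), in the contrast in which Cxcl12 fell. Kit, the receptor for stem cell factor, fell in TBI+DEIX against control from 18.7 ± 0.741 to 9.51 ± 3.68 FPKM (-0.96, adjusted p = 0.00448). Vegfa, the ligand of the Kdr product, rose there from 9.65 ± 0.463 to 18.5 ± 0.426 FPKM (0.87, adjusted p = 0.00101), while Vegfb fell (-0.79, adjusted p = 0.00264). These 3 calls were kept without each of the 6 libraries in turn. Cd44, a receptor for osteopontin, had a log2 difference of 0.52 in TBI+DEIX against control (adjusted p = 0.0846), the contrast in which Spp1 rose, and was called there without TBI+DEIX replicate 1 (0.78, adjusted p = 0.00232). It lay at 0.17 in TBI against control (adjusted p = 0.716) and at 0.55 in DEIX against control (adjusted p = 0.134).

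Markers of macrophages also differed between the groups. In DEIX against control 8 of 12 tested macrophage genes were called lower and 0 higher, where 2.72% of all tested genes were called lower, with a median of -1.25 against 0.016 over all genes. For TBI+DEIX against DEIX 7 were called higher (0.81% of all genes), or 9 without TBI+DEIX replicate 1, where 8.43% of all genes were called in either direction. Of the 7, C1qb, Cd5l and Spic were kept without each of the 6 libraries in turn. C1qa was lost without DEIX replicate 2 and C1qc without DEIX replicate 2 or 3. Mertk was kept in 2 and Mrc1 in 1 of the 6 fits (adjusted p up to 0.107 and 0.158). In TBI against control 3 were called lower (3.99% of all genes called), C1qa, C1qb and C1qc, each lost without at least 5 of the 6 libraries in turn. In TBI+DEIX against TBI 2 were called higher (8.1%), C1qa and C1qb, both lost when replicate 3 of either group was left out. Without TBI+DEIX replicate 1 there were 6 (25.8%). Of the 8 called lower with DEIX alone, 5 were kept without each library in turn, and Axl, Mertk and Siglec1 were lost without 5 of the 6. Their summed FPKM was 227 to 276 in control, 170 to 229 in TBI, 192 to 355 for TBI+DEIX and 143 to 191 for DEIX. The part of these cells in the Cxcl12 and Sparc results was not tested. Markers of cartilage summed to 0.128 to 0.651 FPKM and those of skeletal muscle to 0.519 to 1.40 FPKM in all 12 libraries, and their part in the results was not tested. Acan, Col9a1 and Mb, markers of these tissues, were listed at 0 in every library. Comp reached 0.509 FPKM and Tnnt3 reached 1.32 FPKM, levels like those of the members too low to test. These 5 genes were chosen after their values were seen.

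The genes outside the 10 members whose levels were most like a member's over the 12 libraries are named as a description. By Pearson r of log2(FPKM + 1), they were Serping1 (0.948), Gas6 (0.924) and Bgn (0.894) for Cxcl12, and Bgn (0.941), Gas6 (0.933) and Igfbp7 (0.923) for Sparc. For Col1a2 they were Gas6 (0.875), Bgn (0.874) and Igfbp7 (0.865). Among the members themselves, r was 0.945 between Col1a1 and Col1a2, 0.931 between Col1a2 and Lepr, 0.905 between Col1a2 and Sparc and 0.897 between Cxcl12 and Lepr. Cxcl12, Sparc and Col1a2 had Gas6 and Bgn in common, while for Col1a1 they were Parpbp (0.875), Igfbp7 (0.810) and Phldb1 (0.796). For Spp1 they were Dab2 (0.956), Lrp12 (0.956) and Fuk (0.948), and for Bglap Trmt10a (0.865), Slc25a17 (0.847) and Psmg2 (0.846), none of them shared with the other members. The 12 libraries share 4 groups, so these values hold group differences as well as differences between replicates. Taken as deviations from the group means, r was 0.975 between Col1a1 and Col1a2 and 0.720 between Col1a2 and Lepr. It was 0.468 between Col1a2 and Sparc and 0.867 between Cxcl12 and Lepr.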

How the data were processed

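RNA of whole bone marrow cells was sequenced in 12 libraries, and the authors deposited 1 table of FPKM values. Per the submitters' processing notes, STAR 2.6, Cufflinks 2.2.1 and mm10 were used; the annotation is not given in the sources used here. All 21853 identifiers matched GENCODE vM21, with coordinates on GRCm38. Groups came from the labels. The table holds no counts, so limma 3.58.1 (R 4.3.3) was run on log2(FPKM + 1) with 4 group means over all 12 libraries (8 residual degrees of freedom), an intensity trend and Benjamini-Hochberg adjustment over the 10994 genes with FPKM of at least 1 in at least 3 libraries. Depth was estimated from the 41 lowest values above a floor, as FPKM times length, among 887 genes with 1 transcript longer than 3000 bases. FPKM depends on what else a library holds: S100a8, S100a9 or Ngp, genes of neutrophils, were listed at 0 in 5 libraries, and sums of FPKM ranged from 493683 to 848843.

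The 10 genes and all gene lists were chosen with earlier results of these data known. Named genes are the 10 members and genes drawn from the 3 most abundant tested genes of each list, up to 3 called genes of each list with the lowest p in a contrast, and the 3 non-member genes most like each tested member, plus genes outside this rule that were chosen after their values were seen: those the text marks, Spic, Eng, Adgrl4, Axl, Mertk, Siglec1, Mrc1 and Notch1. Bglap2 and Bglap3 are named as copies of Bglap. Alternatives were a pseudocount of 0.1, no filter, only the groups compared, FPKM rescaled to a fixed sum (TPM) with and without those neutrophil genes, median-ratio size factors, array weights, a replicate block and leaving out each library. The contrast of TBI+DEIX against DEIX, the collagen ratio and the fits of the listed genes with libraries left out were added after seeing the data. The code was tested on simulated data.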

Additional observations from a re-analysis of the deposited data

Results flagged for a closer look

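None of the 10 niche genes was called in limma's test of whether the DEIX effect differed between irradiated and unirradiated mice, 1 of the 6 tested having an unadjusted p under 0.05 (7.5% of all tested genes), and no test for an outlying sample was run within groups of 3 libraries. Among 74 tested genes listed beside them 6 were called, with adjustment over all tested genes, of which 0.2% were called, or 3.01% without TBI+DEIX replicate 1. Fn1, fibronectin, had a DEIX effect in irradiated mice that was lower than in unirradiated mice, with a log2 difference of -2.20 (adjusted p = 0.0142). For 5 macrophage genes it was higher: C1qa at 2.52 (adjusted p = 0.0142), C1qb at 2.43 (0.0142), C1qc at 2.27 (0.0160), Cd5l at 2.201 (0.0160) and Spic at 2.51 (0.0338). With each of the 12 libraries left out in turn, a check added after seeing the data, C1qb kept its call in all 12 fits, Fn1 in 10, C1qa in 9, Cd5l in 8, C1qc in 6 and Spic in 2. Without TBI replicate 2 only C1qb of the 6 was called, and without TBI+DEIX replicate 1 all 6 were. The highest adjusted p ranged from 0.0494 for C1qb to 0.147 for Spic. C1qa had 38.2 ± 2.13 FPKM in control, 17.5 ± 4.03 in TBI, 33.3 ± 10.8 for TBI+DEIX and 11.5 ± 1.98 for DEIX (SD, n = 3).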

How the results depend on the processing

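Over all alternatives for single genes and the collagen ratio, 460 of 546 values kept direction and side of the threshold, 48 lost the call, 18 gained one and 20 changed sign. Most of the 546 belong to results that were not called and had no call to lose. Each called result had 14 alternatives. Calls lost were 8 for Col1a1 in TBI against control, and 7 for Sparc and 5 for Cxcl12 in DEIX against control. In TBI+DEIX against DEIX they were 7 for Sparc, 6 for Cxcl12 and 6 for Spp1. Bglap lost 5 in TBI+DEIX against control and 3 against TBI, and Spp1 lost 1 against control. The number of niche genes called in TBI against control was 1, and it was 3 with only the groups compared (12.9% of all genes called), 0 on TPM with or without the neutrophil genes (2.3% and 2.65%), 0 with the replicate block (3.44%), 6 with array weights (63.8%) and 0 to 1 with 1 library left out (1.39% to 2.36%). In TBI+DEIX against TBI it was 1, and 2 without the filter (3.91%), 0 with only the groups compared, a fit that made no call over all genes, 5 with array weights (50.3%) and 0 to 2 with 1 library left out (0.0455% to 25.8%). In DEIX against control it was 2, and 4 with only the groups compared (18.7%) and 0 to 1 with 1 library left out (1.33% to 8.53%). In TBI+DEIX against control it was 2, and 4 without the filter (21%), 1 on TPM (16.2%) and 1 to 2 with 1 library left out (18.2% to 38.5%). For the interaction it was 0, and 1 with array weights (10.4%). In TBI+DEIX against DEIX it was 3, and 1 without the filter (2.22%), 0 with only the groups compared, again with no call over all genes, and 0 to 3 with 1 library left out (0.455% to 8.43%). The genes too low to test were 4, and 2 at a level of 0.5 FPKM. Log2 changes that changed sign were Col1a1 in DEIX against control with array weights (0.018), Cxcl12 in TBI+DEIX against control on TPM (-0.0082, and -0.039 to 0.24 with 1 library left out), Col1a2 in the interaction with a pseudocount of 0.1 (0.42), on TPM (0.063) and on TPM without the neutrophil genes (0.048, and -0.17 to 0.22 with 1 library left out), and Bglap in TBI+DEIX against DEIX with array weights (0.087, and -0.15 to 0.078 with 1 library left out). With 1 library left out, Bglap ranged from -0.11 to 0.47 in TBI against control and from -0.50 to 0.079 in the interaction, Cxcl12 from -0.62 to 0.085 in TBI+DEIX against TBI, and Sparc from -0.053 to 0.43 in TBI+DEIX against control and from -0.059 to 0.42 in the interaction. The cause was not tested. The array weights did not converge and gave control replicate 2 a weight of 97.5, so the calls made with them were not used in the report. Replicate numbers recur in every group, but only 3 of 18 same-numbered pairs of libraries deviated together with a correlation over 0.1 (range -0.45 to 0.24), so the block was not taken as a pairing. Leaving out a library leaves 2 in its group, with the spread pooled over all groups. On TPM the median of all genes moved by -0.12 in TBI+DEIX against TBI, -0.14 in DEIX against control and -0.11 in TBI+DEIX against control.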
